A study of Homo sapiens with 8 samples.

Results

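The regions described here gained acetylation of lysine 27 on histone H3 (H3K27ac) in pancreatic progenitors (PPs) treated with the BET inhibitor I-BET151. Overlapping peaks (1 bp or more) of the 4 H3K27ac libraries were merged into regions, and a region was chosen by its peak calls, being gained if it held a peak of both I-BET151 libraries and of neither DMSO library. This rule kept 443 of 15752 merged regions (2.81%). Of these, 275 had a summit within 3 kb of a protein-coding transcription start (2.29% of 11990 such regions) and are termed promoter regions. The other 168 (4.47% of 3762) are termed distal. Because the calls chose the regions, these counts are a description and carry no test.

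The PPs had been differentiated from the established human embryonic stem cell line MEL1, which the study's methods give as MEL1 INS GFP/W, with a GFP reporter in the insulin locus, and H3K27ac was measured by ChIP-seq, the sequencing of DNA pulled down with an antibody. All cells were kept in a DMEM-based medium termed EF6 that contained B27 supplement, EGF (50 ng/ml), bFGF (10 ng/ml) and the TGFβ inhibitor 616452 (10 μM). The groups differed in the addition of solvent (DMSO) or of 1 μM I-BET151 over 7 days. Each group had 2 H3K27ac libraries and 2 input libraries from chromatin without immunoprecipitation. The labels do not say whether replicates came from separate cultures, so the spread between them may be technical, and all PPs came from 1 cell line. ChIP depth, solved from the peak values, was 7.96 and 9.84 M reads (M, the SI prefix mega) in DMSO and 7.76 and 8.04 M in I-BET151, and the lists held 12312 to 14248 peaks. The labelled cell type was checked by its markers: 9 of 9 PP markers, among them PDX1, NKX6-1 and SOX9, had a peak within 3 kb of a start in all 4 libraries. Endocrine markers (0 of 6) and mesenchymal markers (0 of 5) had none in any library. The hepatic gene APOA1, the neural gene TUBB3 and the pluripotency gene LIN28A each had one in all 4, and the other 6 genes of those lists in none.

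Acetylation of H3K27 is laid down by the acetyltransferases p300 and CBP and marks active promoters and enhancers. BET proteins bind acetylated lysines through their bromodomains and help to recruit the elongation factor P-TEFb, and I-BET151 competes for that binding pocket. In the developing pancreas, multipotent progenitors are maintained by transcription factors such as PDX1, NKX6-1, SOX9 and GATA4 together with Notch, EGF and FGF signals.

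Sequences of 7 of the strongest gained regions and of 2 lost regions are printed because base composition separated the gained from the lost class. Lost regions held a peak of both DMSO libraries and of neither I-BET151 library. Each sequence is the plus strand of hg38 over the 201 bp around the summit, with CG dinucleotides in capitals, and FGF9, HOXA5, ZNF462 and ADAP1 are promoter regions while the other 5 are distal.
FGF9 gained (chr13:21670050-21670250): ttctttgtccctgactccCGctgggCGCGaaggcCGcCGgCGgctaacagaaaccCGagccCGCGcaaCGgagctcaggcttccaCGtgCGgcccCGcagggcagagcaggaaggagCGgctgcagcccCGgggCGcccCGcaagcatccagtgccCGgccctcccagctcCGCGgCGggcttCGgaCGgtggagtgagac
HOXA5 gained (chr7:27142270-27142470): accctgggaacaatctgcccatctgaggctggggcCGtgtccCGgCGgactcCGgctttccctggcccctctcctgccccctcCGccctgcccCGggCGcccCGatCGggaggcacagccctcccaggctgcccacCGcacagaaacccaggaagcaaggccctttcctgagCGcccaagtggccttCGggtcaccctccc
ZNF462 gained (chr9:106862302-106862502): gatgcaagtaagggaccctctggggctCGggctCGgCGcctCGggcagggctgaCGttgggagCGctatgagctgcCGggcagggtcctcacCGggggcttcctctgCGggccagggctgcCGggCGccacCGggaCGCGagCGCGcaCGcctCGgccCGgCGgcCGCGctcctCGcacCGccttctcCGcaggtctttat
EGFR gained (chr7:55086556-55086756): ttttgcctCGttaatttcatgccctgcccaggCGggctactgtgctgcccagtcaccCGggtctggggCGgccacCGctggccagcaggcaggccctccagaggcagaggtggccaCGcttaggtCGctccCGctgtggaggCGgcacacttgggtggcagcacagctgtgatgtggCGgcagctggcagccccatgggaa
SLC39A11 gained (chr17:72575347-72575547): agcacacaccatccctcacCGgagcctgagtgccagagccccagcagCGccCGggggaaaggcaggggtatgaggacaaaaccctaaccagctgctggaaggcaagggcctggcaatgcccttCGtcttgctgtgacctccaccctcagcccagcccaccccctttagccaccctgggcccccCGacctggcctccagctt
MGST2 gained (chr4:139735413-139735613): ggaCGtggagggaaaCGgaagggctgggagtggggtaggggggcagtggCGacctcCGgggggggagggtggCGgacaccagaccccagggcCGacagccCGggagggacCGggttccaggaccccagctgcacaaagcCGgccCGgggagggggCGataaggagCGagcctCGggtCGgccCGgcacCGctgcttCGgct
TENM3 gained (chr4:180058430-180058630): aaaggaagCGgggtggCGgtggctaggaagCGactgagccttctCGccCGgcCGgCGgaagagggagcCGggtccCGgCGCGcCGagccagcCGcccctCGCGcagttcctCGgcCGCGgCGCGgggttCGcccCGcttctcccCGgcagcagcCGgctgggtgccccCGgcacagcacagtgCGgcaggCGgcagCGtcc
ADAP1 lost (chr7:946170-946370): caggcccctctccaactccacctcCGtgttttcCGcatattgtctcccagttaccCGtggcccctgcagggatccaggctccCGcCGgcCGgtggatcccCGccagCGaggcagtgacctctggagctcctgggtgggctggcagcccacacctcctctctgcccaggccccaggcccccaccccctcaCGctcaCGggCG
RASA3 lost (chr13:114115973-114116173): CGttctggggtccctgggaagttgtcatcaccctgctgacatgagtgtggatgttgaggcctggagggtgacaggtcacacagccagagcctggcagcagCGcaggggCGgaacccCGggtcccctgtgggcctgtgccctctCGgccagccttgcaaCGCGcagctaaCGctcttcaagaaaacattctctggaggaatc

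In these windows the promoter regions held 23 (FGF9), 12 (HOXA5) and 25 (ZNF462) CG dinucleotides, and the lost ADAP1 promoter region held 11. The distal regions ranged more widely. The TENM3 region held 28 and the MGST2 region 17, whereas the EGFR region held 10, the SLC39A11 region 5 and the lost RASA3 region 8. TENM3 and MGST2 here name only the nearest protein-coding starts, at 2086160 and 69678 bp.

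Over whole classes, gained regions were richer in CpG than lost ones. In the 301 bp around the summit, the median ratio of observed to expected CpG at promoters was 0.84 (95% interval 0.82 to 0.86) for gained and 0.69 (0.66 to 0.71) for lost regions. Among distal regions it was 0.49 (0.43 to 0.59) for gained and 0.31 (0.29 to 0.33) for lost. Regions called in all 4 libraries (shared regions) had 0.83 at promoters and 0.51 away from them. The gained medians lay near those of shared regions in both classes. A CpG-rich window, with at least 55% GC and a ratio of at least 0.65, was found at 225 of 275 gained promoter regions (81.8%, 95% Wilson interval 76.8 to 85.9%) and at 397 of 730 lost ones (54.4%, 50.8 to 58.0%). It was found at 58 of 168 gained distal regions (34.5%, 27.8 to 42.0%) and at 51 of 625 lost ones (8.16%, 6.26 to 10.6%). Of all promoter regions 81.6% held such a window, and of shared ones 87.5%. Away from promoters these shares were 22.9% and 38.1%. Gained promoter regions thus lay at the share of all promoter regions, and lost ones below it. Median GC content was 70.1% for gained and 68.1% for lost promoter regions, and 65.8% against 63.8% away from promoters. GC content therefore separated the classes less than the CpG ratio did. Regions are not replicates, and the intervals cover counting error only.

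**Figure D1:**
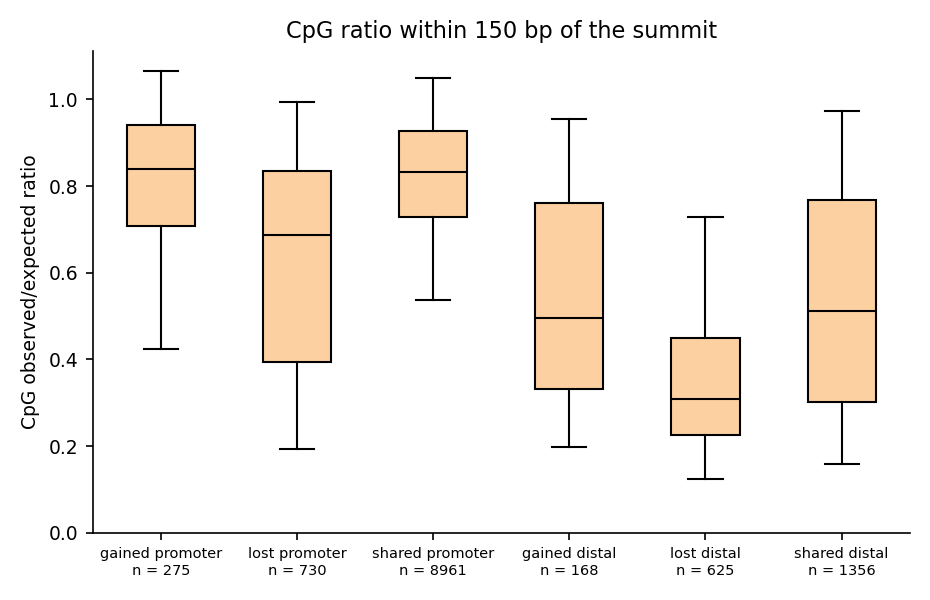
Observed over expected CpG ratio (y axis) within 150 bp of the summit for gained, lost and shared regions at promoters and away from them. Boxes span the quartiles with the median as a line, and whiskers run from the 5th to the 95th percentile. The gained boxes sit beside the shared ones, with medians of 0.84 and 0.49, and the lost boxes lie lower at 0.69 and 0.31.

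Short sequence motifs were counted in the same windows on both strands, with any overlap between motifs kept. Among gained promoter regions, a SOX consensus (ACAATGG or ACAAAGG) was present in 8.36% (23 of 275, 5.64 to 12.2%), against 5.60% of all promoter regions and 3.01% of lost ones. A GATA consensus (AGATAA or TGATAA) was present in 5.45% (3.33 to 8.80%), against 3.11% and 3.01%. A FOXA consensus (TGTTTAC or TGTTTGC) was present in 4.73%, against 2.79% and 2.33%. SOX, GATA and FOXA factors all act in the PP regulatory network. Motifs of other factors in it were not more frequent at gained promoter regions. HNF6 was at 1.09% against 1.29% of all promoter regions, and the homeodomain motif at 0.36% against 0.43%. Of SOX, GATA and FOXA, the SOX and GATA intervals excluded the value of all promoter regions. These intervals treat regions as independent and are not adjusted for the 14 motifs searched in each class. With a −log10 q of at least 10 in I-BET151, both included that value (SOX 4.29 to 14.6%, GATA 2.48 to 11.2%). Within 50 bp of the summit, SOX still excluded it (2.25 to 7.02% against 1.66%), but GATA did not (0.37 to 3.16% against 0.65%). The promoter motifs SP/KLF (GGGCGGG, 37.8% against 44.6%) and NRF1 (0.73% against 2.64%) had intervals below the value of all promoter regions. Away from promoters SOX was at 5.95% of gained regions against 7.26% of all distal regions, GATA at 7.14% against 6.09% and FOXA at 2.38% (0.93 to 5.96%) against 5.34%. The AP-1 consensus (TGANTCA), bound by FOS and JUN dimers, was in 5 of 168 gained distal regions (2.98%, 1.28 to 6.78%), in 6.62% of all distal regions and in 7.52% of lost ones. At promoters AP-1 was in 2.55% of gained and 5.62% of lost regions. The RBPJ consensus (GTGGGAA), bound by the DNA-binding partner of Notch, was in 6.18% of gained promoter regions against 5.59% of all, and in 7.14% of gained distal regions against 8.43%. A motif match is a run of letters and not evidence of a bound factor.

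Gained peaks were of modest strength. MACS2, the authors' peak caller, scores each peak by its fold over local background and by −log10 of the q-value, the p-value adjusted over all candidate peaks. The median fold of gained peaks was 4.24 in I-BET151 replicate 1 and 4.28 in replicate 2, and the fold ranged from 1.90 to 26.7 and from 1.88 to 26.8. For comparison, shared regions had a median fold of 6.76 and 6.86 in the same libraries. Median reads at the summit were 100 (438 regions with a single solution) and 109 (435 regions). The local input level was 9 and 8. For the fold, MACS2 multiplied ChIP reads by 0.39 and 0.33 to bring them to the input scale. Reads divided by input level therefore do not give the fold. Promoter regions had more reads (110 and 121.5) than distal regions (86 and 95) but also more input (10 and 9 against 7 and 6), and their folds (4.02 and 4.07) were lower than the distal ones (4.65 and 4.88). Taking for each region the lower −log10 q of the 2 I-BET151 libraries, the median was 8.20, 343 regions reached 5, 36 reached 20 and 12 reached 30. Only 13 gained regions stood in the upper 50% of both I-BET151 lists when peaks were ranked by −log10 p.

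**Figure D2:**
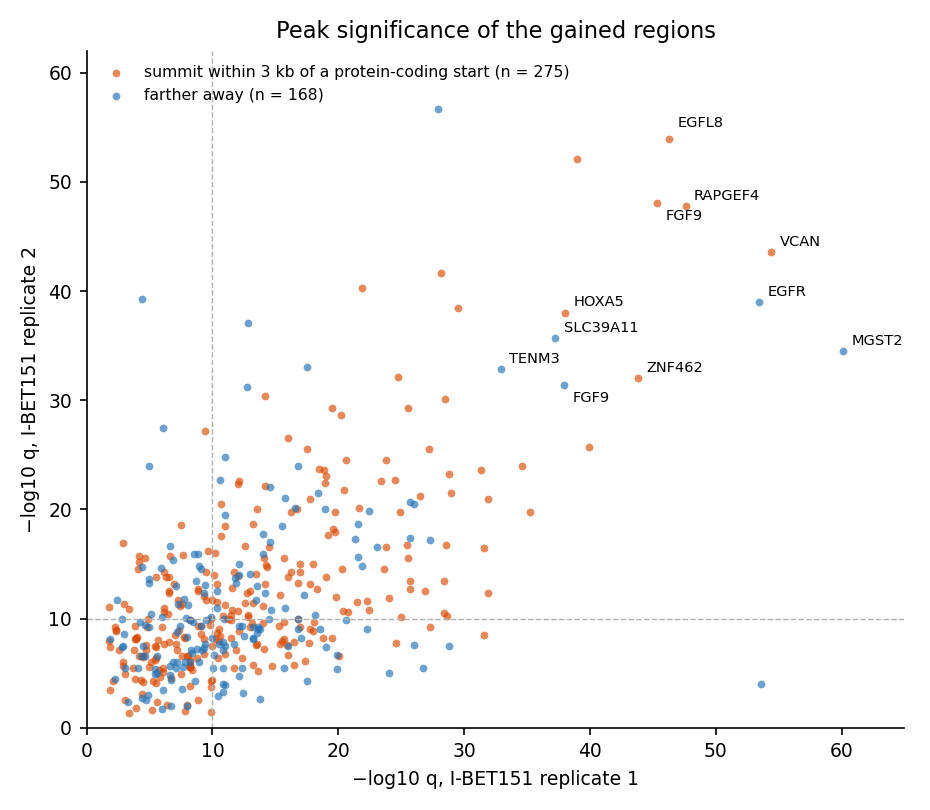
Peak significance (−log10 q) of the 443 gained regions in I-BET151 replicate 1 (x axis) and replicate 2 (y axis), with promoter regions in orange and distal regions in blue. Dashed lines mark 10 on either axis, a level that 158 regions reached in both libraries, and 11 of the 12 regions above 30 in both are named by the nearest protein-coding start.

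At its limit the rule draws a line through weak peaks. The gained regions nearest to the threshold were at TRIM2 (−log10 q of 3.35 and 1.34 in I-BET151 replicates 1 and 2), HOXB5 (9.87 and 1.42) and GALNTL6 (7.81 and 1.50). Just outside lay regions with peaks of both I-BET151 lists and a faint peak in 1 DMSO library. These were at ARHGAP39 (1.41 in DMSO replicate 1, 3.76 and 9.81 in I-BET151), DENND2A (1.44 in DMSO replicate 2, 4.08 and 16.9) and ID1 (1.56 in DMSO replicate 2, 11.9 and 8.89). In all, 433 regions had peaks of both I-BET151 lists and of 1 DMSO list, and in 27 of them the DMSO peak had a −log10 q under 3. The median DMSO −log10 q of the 433 was 8.58, so faint DMSO peaks were the exception among them.

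Absence of a DMSO peak can still hide reads below the threshold, and the size of that gap was estimated. The input level at the summit was taken as equal in DMSO and I-BET151, and the highest DMSO read number that would have stayed uncalled was worked out for each DMSO library. Per M reads and per bp of read extension, the I-BET151 level was then at least 2 times the DMSO limit in all 4 pairings of libraries at 127 of the 430 regions with resolved reads, and at least 3 times at 20. The median of the lowest ratio was 1.67. The highest values were 5.49 at the SLC39A11 distal region and 5.18 at the VCAN promoter region. Peak width also enters the calls and was not modelled, so these ratios are estimates, and for most gained regions a difference of less than 2 times could have produced the same calls.

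The highest-ranked promoter regions were at RAPGEF4, EGFL8, FGF9 and VCAN. At RAPGEF4, which encodes a cAMP-activated exchange factor for RAP GTPases, the summit lay 125 bp into the gene on chromosome 2 (172735540 to 172736350, intron). Its −log10 q was 47.6 and 47.8 with 245 and 249 reads in I-BET151 replicates 1 and 2, and neither DMSO library had a peak. At EGFL8, a gene for a secreted protein with EGF-like domains, the peaks reached 46.3 and 53.9 with 221 and 254 reads. The region upstream of FGF9, an FGF ligand, had 45.4 and 48.1 with 219 and 266 reads. In each of these the nearest shared region was kilobases away, at 179 kb for RAPGEF4, 7.86 kb for EGFL8 and 65.6 kb for FGF9. VCAN, which encodes the matrix proteoglycan versican, differed in that respect. Its region had folds of 14.7 and 13.5 at 54.4 and 43.5, but it lay 0.261 kb from a shared region and joined it when peaks within 500 bp were merged.

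Further down the promoter ranking stood transcription factor genes and structural genes. ZNF462, a zinc finger gene, had a region 764 bp upstream of its start (43.8 and 32.0) and a weaker one 2392 bp upstream (31.6 and 16.5). ZBTB16 encodes the transcriptional repressor PLZF and had adjacent regions of 28.2 and 41.6, and of 12.0 and 10.7, with a distal one 29811 bp downstream (19.9 and 5.40). POU3F2, a neural POU-domain factor, reached 27.2 and 25.5 with its summit 339 bp downstream of the start. COL27A1, which encodes a fibrillar collagen chain, had 28.5 and 30.2. DSC3 (25.6 and 29.2) encodes a desmosomal cadherin and DCLK2 (24.7 and 32.2) a doublecortin-like kinase. SRM (34.6 and 23.9), for spermidine synthase, was the only one of these with a shared region closer than 0.2 kb. BEND7 (29.5 and 38.4), C3orf80 (39.9 and 25.8) and HOXA5 were also among the first 15.

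The strongest distal regions were more mixed. An intronic region of EGFR, the EGF receptor, lay 23067 bp upstream of the nearest annotated start (chromosome 7, 55086430 to 55086875) and had −log10 q of 53.5 and 39.0 with 197 and 236 reads. The nearest shared region was 7.04 kb off. The region nearest to SLC39A11, a zinc transporter gene, was intergenic on chromosome 17 (72575230 to 72575619) and had few reads, 89 and 102, but an input level of 1 in both libraries, so that its folds of 17.9 and 17.4 were high, and the replicate 1 value was the highest in that library among the first 15 regions of either class. Its summit lay 580 bp from the start of the long noncoding RNA LINC00511. A region within MAML3 and MGST2 on chromosome 4 (139734709 to 139736043) had 60.1 and 34.5 with 252 and 240 reads. MAML3 encodes a Notch coactivator, although the nearest protein-coding start was that of MGST2. A region in an intron of MECOM, a zinc finger factor gene, had 25.7 and 20.7, and a SPECC1 intron had 27.9 and 56.6. SLC25A29, SIPA1L3, OLR1, SKIDA1, TNS3 and PRAM1 were the nearest starts of 6 others in the first 15, with lower −log10 q values from 17.3 to 19.9.

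Not all distal regions were remote from transcription starts. Counting starts of every gene type, 59 of 168 distal regions (35.1%, 28.3 to 42.6%) lay within 3 kb of one and 39 (23.2%) within 1 kb. Examples were a region 27 bp from the start of SOX9-AS1, one 87 bp from LINC02036 in the HES1 neighbourhood, and one 375 bp from ELDR downstream of EGFR. By annotation, 85 distal summits were intergenic (50.6%, against 50.5% of all distal regions) and 62 intronic (36.9% against 40.5%). Another 12 were in coding exons (7.14% against 4.44%) and 9 in noncoding exons (5.36% against 4.55%). The intergenic share thus lay at that of all distal regions.

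At promoters, gained summits sat farther from the start than shared ones. Within 500 bp of a start lay 202 of 275 gained summits (73.5%, 67.9 to 78.3%), compared with 90.3% of shared promoter regions (89.7 to 90.9%) and 71.9% of lost ones (68.5 to 75.1%). The summit was downstream of the start at 186 (67.6%), close to the 66.8% of lost and 72.9% of shared promoter regions.

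Gained promoter regions were split by whether their gene already carried a DMSO peak. They named 257 genes as their nearest protein-coding start, and at 170 of these (66.1%, 60.2 to 71.7%) no DMSO library had a peak within 3 kb of any start of the gene. These genes are termed newly marked, which means only that no DMSO peak was called there. Reads below the threshold may still have been present in DMSO. For lost promoter regions, the corresponding share of genes with no I-BET151 peak left was 61.1% (393 of 643, 57.3 to 64.8%). The 182 regions at newly marked genes were centred on the start, with a median distance of 190 bp, and had a median GC content of 72.1% and a median gap of 117 kb to the nearest shared region. The 93 regions at genes that already carried a DMSO peak lay 547 bp from the start in the median, had 66.8% GC and a median gap of 2.65 kb. The difference in gap follows largely from the split itself, which asked for a DMSO peak nearby. The median lower −log10 q was 8.86 and 8.59. RAPGEF4, FGF9, ZBTB16 and POU3F2 were newly marked genes, and VCAN and SRM were already marked.

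Gained promoter regions lay far from shared regions. Their median gap was 65.5 kb, against 20.0 kb for lost promoter regions, 27.8 kb for promoter regions called in 3 libraries and 37.3 kb from each shared promoter region to the next. Within 10 kb of a shared region lay 64 of the 275 (23.3%) and within 100 kb 162 (58.9%), compared with 37.3% and 82.1% of lost promoter regions. Gained distal regions did not share this distance, with a median gap of 23.7 kb against 25.2 kb for lost distal regions. Another gained region lay within 10 kb of 83 gained regions (18.7%), whereas a lost region lay within that distance of 7 (1.58%), although 1355 regions were lost and 443 gained.

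**Figure D3:**
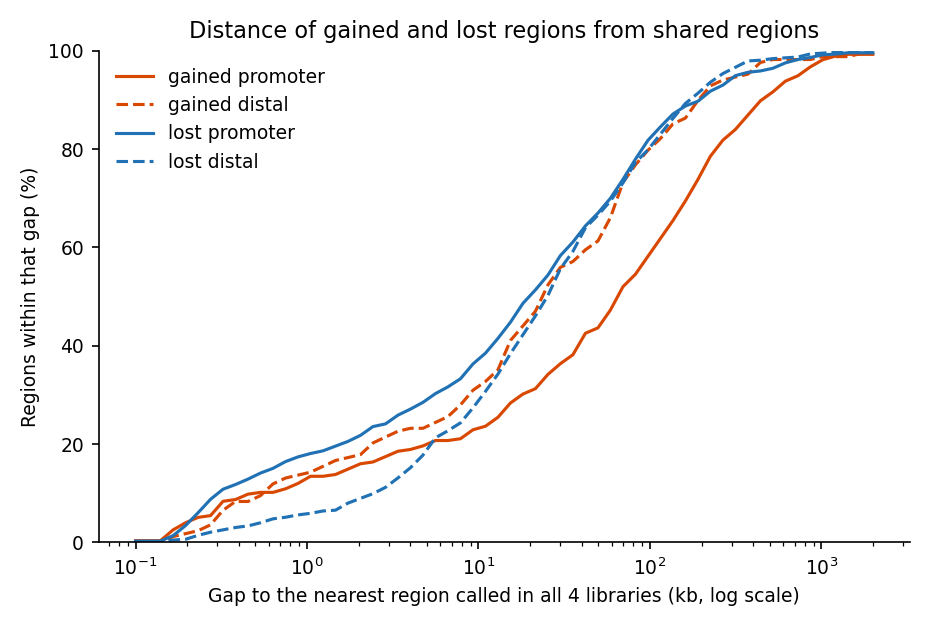
Cumulative share of regions (y axis, %) within a given gap (x axis, kb, log scale) of the nearest region called in all 4 libraries, for gained (orange) and lost (blue) regions at promoters (solid) and away from them (dashed). The gained promoter curve runs to the right of the others, reaching 58.9% at 100 kb where lost promoter regions reach 82.1%.

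Shared regions close to a gained region were themselves broader and stronger in I-BET151. They had not been chosen for a difference between groups, although the same 4 libraries and the same contrast chose the gained regions beside them, so they are no independent sample. There were 174 shared regions with an edge within 10 kb of a gained region. Their mean log2 covered length was 9.67 and 9.63 in DMSO replicates 1 and 2 and 9.91 and 9.81 in I-BET151 replicates 1 and 2. Both I-BET151 libraries lay above both DMSO libraries, by 0.21 on the log2 scale (9.86 ± 0.07 against 9.65 ± 0.02, SD, n = 2 each). With 2 libraries per group an exact permutation test cannot go below p = 0.33, two-sided, which was the value here and for the 3 comparisons that follow. Mean log2 fold at the summit was 2.52 and 2.67 in DMSO and 3.02 and 3.03 in I-BET151, a difference of 0.43. Over all 10317 shared regions the libraries differ as well, so the mean of all was subtracted. The neighbours then stood at 0.15 and 0.16 in DMSO and 0.46 and 0.43 in I-BET151 for log2 covered length (difference 0.29). For log2 fold they stood at −0.11 and −0.11 in DMSO and 0.25 and 0.25 in I-BET151 (difference 0.36). These differences were larger than the spread between replicates, which was at most 0.02 (SD).

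Region by region, 100 of the 174 neighbours (57.5%) were broader in both I-BET151 libraries than in both DMSO libraries, where 16.0% of all shared regions were. Only 12 (6.90%) were narrower in both, against 33.3% of all. For the fold, 90 (51.7%) were higher in both I-BET151 libraries against 25.4% of all, and 6 (3.45%) lower against 16.3%. Of 85 shared regions near gained promoter regions 54.1% were broader and 10.6% narrower, and of 93 near gained distal regions 62.4% were broader and 3.23% narrower. The difference between these shares was not tested. Shared regions within 10 kb of a lost region went the other way, since of 513 such regions 4.68% were broader and 61.0% narrower.

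**Figure D4:**
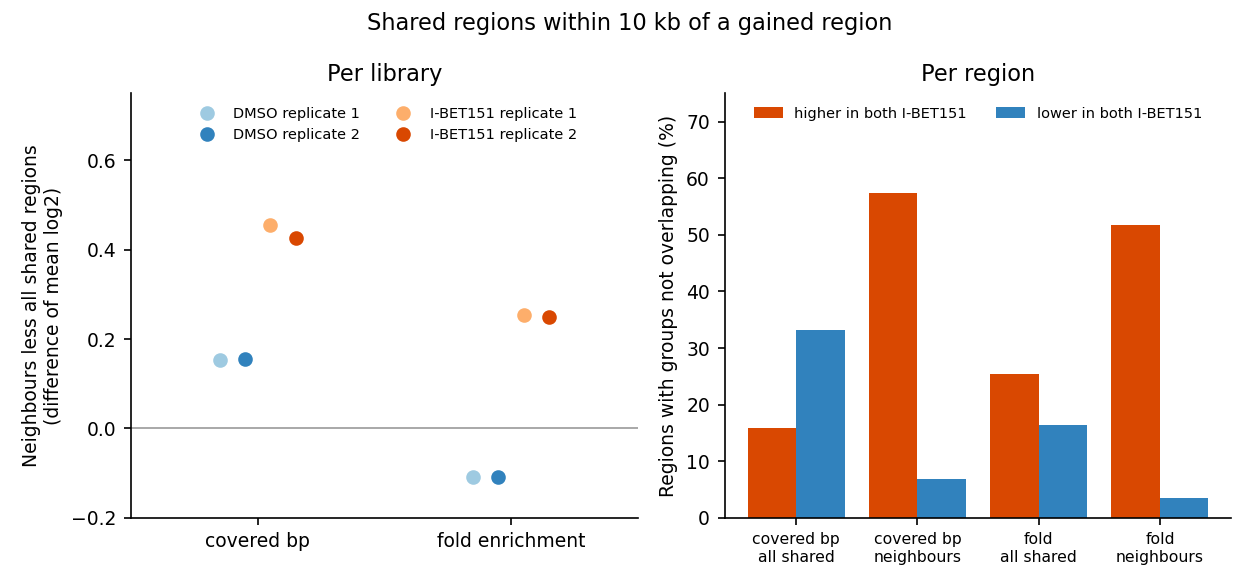
Left, mean log2 covered length and mean log2 fold of the 174 shared regions within 10 kb of a gained region, less the mean of all shared regions, with 1 point per library (blue, DMSO, and orange, I-BET151). Right, percentage of shared regions that were higher (orange) or lower (blue) in both I-BET151 libraries than in both DMSO libraries, for all 10317 shared regions and for the 174 neighbours. Neighbours broader in I-BET151 make up 57.5%, against 16.0% of all shared regions.

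Single neighbours showed what lay behind these means. A shared region 541 bp from the start of NHS, an X-linked gene of eye and tooth development, covered 630 and 390 bp in DMSO, against 1863 and 1760 bp after I-BET151. Near the GATA4 start a shared region covered 379 and 364 bp in DMSO libraries and 717 and 649 bp in the others. The shared region at VCAN covered 414 and 877 bp and then 1035 and 1015 bp, and its fold was 6.47 and 7.23 in DMSO and 12.9 and 17.8 in I-BET151. In all 3 the groups did not overlap in covered length. A region 53825 bp upstream of the NOTCH1 start behaved likewise, at 1036 and 825 bp in DMSO against 1808 and 1857 bp. These neighbours were taken from the upper end of the ranking by change in covered length, after their values had been seen.

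The 443 regions named 379 nearest genes, 3.64% of the 10398 protein-coding genes nearest to any region. Of these, 337 had 1 gained region, 27 had 2 and 15 had 3 or more. For the last group, peak coverage was summed per library over the gene and 50 kb on either side. FGF9 had 0 kb in both DMSO libraries and 2.40 and 2.42 kb in I-BET151 replicates 1 and 2. LRRN1, a leucine-rich repeat gene of the nervous system, had 0 kb in both and then 1.44 and 1.33 kb. TENM3, a teneurin gene of neuronal adhesion, had 0 kb in both and then 1.37 and 1.24 kb. At these 3 loci every peak lay in gained regions. ZBTB16 had 0 and 0.272 kb and then 1.97 and 2.23 kb. These 4 loci had little or no called acetylation in DMSO.

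Other loci with several gained regions were already acetylated in DMSO. PRDM16, a zinc finger gene with 6 gained regions, had 38.1 and 36.5 kb in DMSO against 46.4 and 43.1 kb. Without the gained regions the I-BET151 values were 43.7 and 40.2 kb, still above both DMSO values. NOTCH1 had 4.83 and 5.92 kb in DMSO against 8.21 and 10.2 kb, of which 6.37 and 7.59 kb lay outside gained regions. ONECUT1 had 5.23 and 4.70 kb against 7.86 and 8.01 kb, and 6.43 and 6.21 kb outside gained regions. At PRDM16, NOTCH1 and ONECUT1 coverage outside the gained regions was thus higher in both I-BET151 libraries too. EGFR differed, with 4.16 and 3.92 kb in DMSO against 4.87 and 4.86 kb in I-BET151. Outside its gained regions it had 3.79 and 3.83 kb in I-BET151, below both DMSO values. Its window also held 2 lost regions, which enter the DMSO totals. At EGFL7 and GSE1 the libraries of the 2 groups overlapped. EGFL7 had 8.97 and 10.6 kb in DMSO against 12.3 and 9.74 kb. GSE1 had 15.7 and 14.7 kb and then 15.1 and 12.0 kb with 6 lost regions in the window. Lost regions also lay in the windows of PRDM16 and EGFL7 (2 each) and of TNS3 (1). CDK5RAP3, TNS3 and VCAN were higher in both I-BET151 libraries. Outside the gained regions TNS3 (6.04 and 4.62 kb against 4.22 and 4.03 kb) and VCAN (1.03 and 1.01 kb against 0.414 and 0.877 kb) remained so, whereas CDK5RAP3 had 1.38 and 0.704 kb against 1.46 and 0.969 kb in DMSO. The gained regions themselves enter the totals, so a higher total with them is built in.

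**Figure D5:**
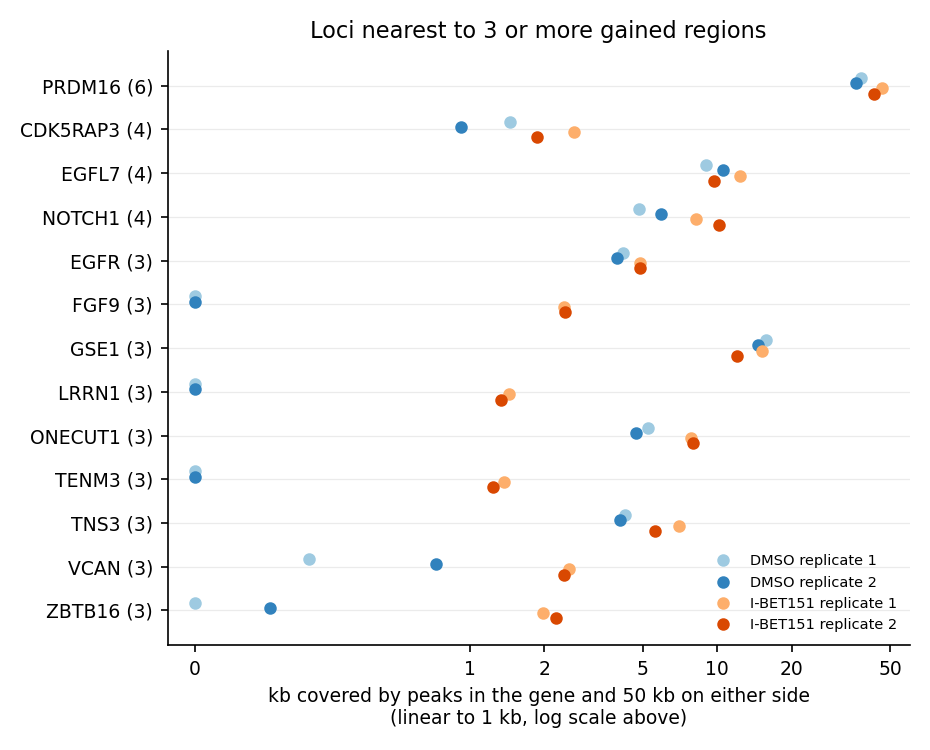
Length covered by H3K27ac peaks (x axis, kb, linear to 1 kb and logarithmic above) in each library over 13 of the 15 genes nearest to 3 or more gained regions, with 50 kb on either side and the number of gained regions in brackets. Blue points are DMSO and orange points I-BET151 libraries. FGF9, LRRN1 and TENM3 stand at 0 kb in both DMSO libraries, and PRDM16 has the most coverage in all 4 libraries.

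Of 23 regulators of PPs nearest to any region, 3 were nearest to a gained one (GATA4, ONECUT1 and SOX9), or 13.0% against 3.64% of all genes. GATA4, an endoderm zinc finger factor, had a promoter region 172 bp into the gene (−log10 q of 6.58 and 7.85) and an intronic region 6041 bp downstream (21.9 and 14.8) that lay 0.342 kb from a shared region. SOX9, a factor of the progenitor pool and the ducts, had a region 5031 bp upstream (16.8 and 9.03). ONECUT1 (HNF6) had 3 distal regions with lower values from 7.18 to 8.00. The gained regions at GATA4, ONECUT1 and SOX9 thus added to loci whose promoters carried peaks in all 4 libraries.

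Notch pathway genes were named by 9 gained regions at 6 of 24 genes (25.0%, against 3.64% of all genes). With equal list lengths 5 of the 9 regions were no longer gained (3 at NOTCH1 and those at LFNG and NRARP), and where a −log10 q of 5 was asked for 6 were not. NOTCH1, the receptor, had an upstream region at −log10 q of 21.6 and 15.6 and 3 weaker ones whose lower values were 2.80 to 4.71. Its promoter region lay 0.193 kb from a shared one. Among the HES and HEY genes of the list, HES6 (7.01 and 8.52) and HEY1 (13.6 and 5.24) had promoter regions. HES1 had a distal region 68142 bp away (5.57 and 4.98). LFNG, a glycosyltransferase that modifies Notch receptors, had 3.08 and 2.57, and NRARP, a feedback inhibitor, had 1.83 and 8.10. Apart from the upstream NOTCH1 region, the lower value of each was below the median of 8.20 of all gained regions. Lost regions were nearest to 3 of the 24 Notch genes (12.5%), against 10.2% of all genes. The names come from the nearest start, and no readout ties a region to a gene.

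EGF and FGF genes were named by 10 gained regions at 5 of 33 genes (15.2%, against 3.64% of all genes). Besides EGFR and FGF9 these were DUSP4, a phosphatase that dampens MAP kinase signalling, with upstream regions of 31.3 and 23.6 and of 25.7 and 12.7, DUSP5, a related phosphatase, with a distal region of 13.2 and 8.17, and FGF14 with an intronic one of 11.7 and 7.64. At FGF9 the promoter region was followed within the gene by regions 3049 bp (37.9 and 31.4) and 4444 bp (12.8 and 37.0) downstream of the start. The first of these lay 120 bp from the start of a noncoding FGF9 transcript. Lost regions were nearest to 7 of the 33 EGF and FGF genes (21.2%), against 10.2% of all genes. The medium contained EGF and bFGF in both groups.

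HOX genes encode the homeobox factors of axial position. Of 11 HOX genes nearest to any region, 10 were nearest to a gained one (90.9%, against 3.64% of all genes). They had 15 gained regions, of which 13 lay at promoters. Strong ones were at HOXA5 (38.0 and 38.0), HOXA3 (26.5 and 21.2) and HOXA2 (20.6 and 24.5). HOX genes within a cluster lie close together, so these regions are not separate observations. The list held 39 genes, and all but the 11 were nearest to no region. Gained regions count as regions here, so a gene without a DMSO peak could enter the 11 through its gained region alone. HOXA5 and HOXA2 had no DMSO peak within 3 kb of any start, whereas HOXA3 had one. The share of 90.9% is therefore raised by construction. Of the whole list, 10 of 39 genes were nearest to a gained region, against 379 of 20007 protein-coding genes.

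Shares for lists of other functions lay on both sides of the 3.64% of all genes. The cell cycle list had 4 of 41 genes (9.76%), CDC25A (17.0 and 14.2), CCNE2 (19.8 and 12.0), E2F2 (8.86 and 9.30) and RBL1 (9.08 and 9.28). The extracellular matrix list had 4 of 61 (6.56%), VCAN, COL27A1, COL2A1 (16.0 and 26.6 at the stronger of 2 regions) and FBN1 (12.1 and 8.86). Small GTPase regulators had 7 of 108 (6.48%), led by RAPGEF4 and SIPA1L3. The share for ZNF genes (9 of 287, 3.14%) lay near that of all genes. 1 gene each was named in the TGFβ and BMP pathway (1 of 39, TGIF1, 2.78 and 7.38), ion channels (1 of 43, KCNT1, 7.14 and 12.9) and the ductal list (1 of 24, MUC1, 19.2 and 17.6). The WNT list had 2 of 34 (5.88%), LRP5 and WNT8B. By comparison, 10.2% of all genes were nearest to a lost region. That share was 34.4% (21 of 61) for extracellular matrix, 41.7% (10 of 24) for ductal and 30.8% (12 of 39) for TGFβ and BMP genes. It was 20.9% for ion channels and 13.9% for small GTPase regulators. The cell cycle (7.32%), ZNF (6.27%) and WNT (8.82%) lists lay below 10.2%. No gained region named a gene of the acinar (5 genes nearest to any region), hepatic and intestinal (11), mesenchymal (11), pluripotency (5) or BET and P-TEFb (11) lists.

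The endocrine list had 1 of 3, where 3.64% of all genes were nearest to a gained region, and this was RFX6, a factor of endocrine differentiation, whose promoter region was 29.0 and 21.5 with the nearest shared region 195 kb away. Endocrine markers with no gained region, such as NEUROG3 and NEUROD1, had no peak at a start in any library. All 3 genes of the neural list that were nearest to any region were nearest to a gained one (3.64% of all genes), POU3F2, NES (17.3 and 12.2, distal) and TUBB3 (2.91 and 17.0). The neural list held 26 genes, so 23 of them were nearest to no region of either group. The endocrine list held 24 genes. RFX6 and POU3F2 had no DMSO peak within 3 kb of any start, and such genes could enter these counts through a gained region alone. Both shares are therefore raised by construction. Of the whole lists, 3 of 26 neural and 1 of 24 endocrine genes were nearest to a gained region, against 379 of 20007 protein-coding genes. Of the neural markers, TUBB3 had a promoter peak in all 4 libraries and SOX1 and PAX3 in none. Whether cells of another type contributed to these regions was not tested.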

How the data were processed

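H3K27ac ChIP-seq of PPs derived from MEL1 cells (per the labels; MEL1 INS GFP/W in the study's methods) yielded 4 deposited peak lists, 2 for DMSO and 2 for I-BET151, grouped by library title. No lists of the 4 input libraries were used here. Per the study's methods and the submitters' processing notes, the authors aligned reads to hg38 with Bowtie2 (version 2.2.5) in local mode, removed duplicates with Picard, and called peaks per library, without pooling, with MACS2 (version 2.1.2) at default settings. The deposited lists give each peak's position and summit, a score (not used), the fold as a ratio to the local background, and the p-value and q-value as −log10, each from the authors' peak caller. Duplicate removal caps peak height, and the fixed q threshold leaves out weak acetylation. The lowest −log10 q of a list was 1.30 to 1.36.

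Peaks of the autosomes (1 to 22), X and Y were merged at 1 bp and classed by distance to protein-coding transcript starts of GENCODE release 44 (hg38). Coordinates are 1-based. Reads at summits, input levels and depths were solved from the deposited fold and −log10 p of each peak, assuming the genome size of 2700000000 bp that MACS2 uses by default, and 97.6 to 98.9% of peaks had a single solution. The solving and merging steps were tested on simulated data. Shares carry Wilson 95% intervals, and the intervals of medians are binomial. Motifs were searched in 301 bp around the summit: AP-1, GATA, SOX, FOXA, TEAD (GGAATG), RBPJ, ETS (CCGGAAG), SP/KLF, E-box (CACGTG), homeodomain (TAATTA), HNF6 (ATCGAT or ATCAAT), CRE (TGACGTCA), NRF1 and CTCF. Group means over neighbouring shared regions were compared by exact permutation (two-sided, 6 assignments of 4 libraries to groups). No reads at uncalled positions were used.

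Genes were named by a rule: the first 15 regions of each class by the lower −log10 q, all regions at PP regulator, Notch, EGF and FGF genes, genes nearest to 3 or more regions, up to 4 members of the other lists, and the regions at the limit of the call. Some genes that met the rule are not reported here. The regions, the 19 gene lists and the tests were chosen with earlier results of these data known. Alternatives were equal list lengths, stricter q-values, merging within 500 bp, 50% coverage, other distances and windows, leaving out each replicate, and a replicate block. Analyses used Python 3.11.15, pandas 2.3.3, SciPy 1.17.1 and pysam 0.24.0.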

Additional observations from a re-analysis of the deposited data

How the results depend on the processing

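The number of gained regions depended on the lists, and 443 became 687 (443 at promoters) with equal list lengths, where each list held its 12312 top-ranked peaks. With a −log10 q of at least 10 in I-BET151 it was 158, of which 112 were at promoters (70.9%) and 46 distal. Leaving out 1 replicate asks for fewer calls and gave 595 to 952 gained regions (358 to 517 at promoters and 237 to 435 distal). The most were found without I-BET151 replicate 2 (952, 54.3% at promoters), and without DMSO replicate 2 and I-BET151 replicate 1 there were 726 and 701. The median gap to a shared region was then 25.0 to 39.4 kb, against 49.1 kb. A start within 1 kb put 52.4% at promoters, and starts of every gene type 75.4%, with 109 distal regions. The 50 bp window moved median GC content to 72.3% at promoters and 69.3% away from them. With starts within 50 kb the WNT list had 1 gene. Except where the alternative's construction sets them, the cause was not tested. Merging within 500 bp left 370 and 50% coverage 519.

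Of 84 named regions, 71 stayed gained with equal lists, 66 where −log10 q was 5 or more, 44 where it was 10 or more in I-BET151, 63 after merging within 500 bp and 79 with 50% coverage. Regions that joined a neighbour in the merge included those at VCAN, NOTCH1, GATA4, ONECUT1, DUSP4, HES6, LFNG and SRM.

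The neighbour differences kept their direction in each alternative. Covered length less all shared regions ran from 0.13 (within 50 kb) to 0.34 (within 3 kb) and fold from 0.17 to 0.40. Not centred, the difference in covered length within 50 kb was 0.06 (exact permutation p = 0.67). Same-numbered libraries did not deviate together over regions (correlations of 0.01 to 0.08). With 2 libraries per group this cannot show whether same-numbered libraries were cultured or processed together, which the labels do not say. With a replicate block the differences stayed at 0.29 and 0.36, and the 443 calls stayed as well, both by construction. Depth limits absence: a region without a DMSO peak may carry reads below the threshold.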

Other observations

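Gained regions were unevenly spread over the chromosomes. On chromosome 4 they made up 29 of 505 regions (5.74%, 95% Wilson interval 4.03 to 8.13%), and on chromosome 7, which carries the HOXA cluster, 30 of 706 (4.25%, 2.99 to 6.00%). Lower shares were seen on chromosome 19 (20 of 1140, 1.75%, 1.14 to 2.69%), chromosome 20 (5 of 436, 1.15%, 0.49 to 2.66%) and chromosome 22 (5 of 444, 1.13%, 0.48 to 2.61%). Over all chromosomes the share was 2.81%. The chromosomes were picked after their values had been seen, and no test was run over them.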
